A study of Mus musculus with 13 samples.

Results

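Replication origins that were detected in control replicates 1 and 2 only, among 3 control and 2 PhenDC3 samples, were analysed. The origins were mapped in CGR8 mouse embryonic stem (ES) cells by SNS-seq, the sequencing of the short RNA-primed nascent strands that are left where DNA synthesis has just begun. The peaks of the 5 deposited SNS-seq lists (3 control, 2 PhenDC3) were merged on the nuclear chromosomes wherever they shared at least 1 bp, which gave 246934 regions. The origins described here are the 7840 regions, 3.18% of all, with a peak in both control replicate 1 and control replicate 2 that neither control replicate 3 nor any PhenDC3 sample shared. They are named C1/C2 origins here. They make up 14.7% of the 53445 regions with a peak in both control replicates 1 and 2. Presence of peaks chose them, so that presence, fold enrichment and peak p-value are given as a description without a test. Because a control replicate lacks these peaks as well, the rule does not separate control from PhenDC3, and what 1 control and both PhenDC3 samples have in common cannot be told apart from an effect of the ligand here. Their number depends on each list: it was 18692, 43163 and 11551 when control replicate 1, 2 or 3 was left out, and 12256 and 9055 when PhenDC3 replicate 1 or 2 was left out.

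Control cells were asynchronous CGR8 cells grown for 48 h with 0.5% DMSO, and the treated cells received 10 μM PhenDC3, a ligand that binds and stabilizes G-quadruplexes, for the same time, also in 0.5% DMSO. CGR8 is a single cell line cultured without feeder cells in serum and LIF. Peaks were called by the authors in each SNS-seq replicate separately against an RNase-treated library of the same condition, of which there was 1 per condition, so the peak lists of a condition share that library. RNA-seq was made from 3 control and 3 PhenDC3 samples. The nuclear lists held 120882, 81211 and 79377 peaks in control replicates 1, 2 and 3 and 144103 and 102400 peaks in PhenDC3 replicates 1 and 2. No read totals come with the lists, and how deeply each library was sequenced is unknown. The RNA-seq samples held 22232014 to 29486502 counted reads. The 9 embryonic stem cell markers were all at 10 CPM or more, and their summed level was 6835 to 8040 CPM in control and 8601 to 10341 CPM in PhenDC3 samples. The mesoderm markers summed to 2.03 to 3.36 CPM the trophectoderm markers to 7.69 to 15.7 CPM, the fibroblast markers to 6.54 to 8.91 CPM and the neural markers to 61.8 to 87.4 CPM in the 6 samples, while the primitive endoderm markers summed to 17.0 to 30.7 CPM in control and 47.0 to 62.7 CPM in PhenDC3 samples.

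Mammalian origins have no common consensus sequence. Many lie close to G-rich sequence that can fold into a G-quadruplex (G4), a stack of planar guanine tetrads, and many others lie in CpG islands, the GC-rich and CpG-rich stretches that hold most promoters of widely expressed genes. Promoter chromatin is open, and the start site itself is usually kept free of nucleosomes, with positioned nucleosomes on both sides.

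Sequences of both kinds occurred among the C1/C2 origins. The first 2 are from the strongest C1/C2 origins that were CpG-island-like, had no predicted G4 and had a summit outside UTRs and noncoding exons, and they show what these origins look like in place of a G-rich run. Each is 200 bases around the summit of the stronger peak, on the plus strand of GRCm38 (mm10), with the CpG dinucleotides in capitals. They are in the body of Apba1 (a coding exon, 134999 bp downstream of the nearest start site) and at Bmp6 (at -149 bp, upstream of its start), and hold 11 and 15 CpGs.
chr19:23893799-23893998 (Apba1): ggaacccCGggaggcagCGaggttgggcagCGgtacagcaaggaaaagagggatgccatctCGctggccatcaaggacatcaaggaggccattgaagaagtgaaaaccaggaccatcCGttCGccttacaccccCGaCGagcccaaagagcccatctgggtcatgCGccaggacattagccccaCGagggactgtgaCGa
chr13:38345370-38345569 (Bmp6): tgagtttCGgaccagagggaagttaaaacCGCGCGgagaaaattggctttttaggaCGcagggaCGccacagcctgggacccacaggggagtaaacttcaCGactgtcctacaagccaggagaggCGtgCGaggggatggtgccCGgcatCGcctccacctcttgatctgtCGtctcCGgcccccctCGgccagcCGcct
The next 3 hold the predicted G4s with the highest G4Hunter scores near a C1/C2 origin, 3.47 near Plppr2, 3.45 near Reps1 and 3.43 in an intergenic region whose nearest start site, 45178 bp away, is that of Akr1d1. G4Hunter scores the G-richness and G-skew of a sequence. They are printed 5′ to 3′ on the G-rich strand, the minus strand in all 3 cases, with the G4 in capitals and 20 bases on either side.
chr9:21943104-21943181 (Plppr2): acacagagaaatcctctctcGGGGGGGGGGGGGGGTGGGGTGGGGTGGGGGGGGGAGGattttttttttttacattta
chr10:18054942-18055001 (Reps1): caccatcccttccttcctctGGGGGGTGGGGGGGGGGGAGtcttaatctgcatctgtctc
chr6:37575825-37575885 (Akr1d1): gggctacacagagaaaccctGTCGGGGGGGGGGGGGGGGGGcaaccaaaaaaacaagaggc
The last is from the origin at the promoter of Xpa, a DNA damage recognition factor of nucleotide excision repair. It is shown as the summit of an origin with neither feature, with 3 CpGs in 200 bases of the plus strand and no predicted G4 within 500 bp of its centre.
chr4:46196395-46196594 (Xpa): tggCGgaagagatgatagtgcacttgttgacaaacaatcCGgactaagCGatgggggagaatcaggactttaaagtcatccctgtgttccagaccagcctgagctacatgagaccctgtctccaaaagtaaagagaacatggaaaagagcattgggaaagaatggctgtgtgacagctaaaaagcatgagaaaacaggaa
The origin at Xpa had fold enrichments of 3.05 and 4.15 in control replicates 1 and 2, and the nearest peak of a sample without it was 27567 bp away.

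The C1/C2 origins lay around transcription start sites (TSSs). The centre of 4678 of 7840 (59.7%, 95% Wilson interval 58.6 to 60.8%) was within 2 kb of a TSS, against 17.2% of the 22677 origins with a peak in all 5 samples, 24.5% of the 3711 with a peak in all 3 controls and no PhenDC3 sample, and 16.5% of all merged regions. For the 7194 origins of the other control pairs (control replicates 1 and 3 only, or 2 and 3 only) the share was 9.54%, with 9.43% and 9.65% in the 2 pairs. The origins of all 5 samples, of all 3 controls only and of the other pairs all hold a peak of control replicate 3. Only 13.6% of the peaks in that list were within 2 kb of a TSS. Regions with a peak in control replicate 1, 2 or 3 only had shares of 21.3%, 33.9% and 6.6%. Intervals over origins cover counting error only, since origins of 1 list are not replicates, and no p-value is given. The difference from the other pairs was 50.1 percentage points (48.8 to 51.4), and that from the origins of all 5 samples was 42.5 points (41.3 to 43.7). Within the promoter as the 2 kb upstream of a TSS, the shares were 33.2%, 5.13% and 8.61%, and the differences 28.1 points (26.9 to 29.2) and 24.6 points (23.5 to 25.7). Regions of control replicate 1, 2 or 3 only had promoter shares of 10.85%, 20.4% and 2.93%. Without control replicate 1, 2 or 3, the difference in promoter share from the other pairs was 20.3, 9.46 and 14.9 points. That from the origins of all remaining samples was 17.5, 7.05 and 16.7 points. The regions compared changed as well. Without control replicate 1 or 2, the other pairs took in regions of control replicate 3 only and of all 3 controls only. Without control replicate 3, they took in regions of control replicate 1 only or 2 only. The C1/C2 side still held all 7840 C1/C2 origins in each case. They were joined by 10852 regions of control replicate 2 only, 35323 of control replicate 1 only and 3711 of all 3 controls only, respectively. Both differences kept their sign and were smallest without control replicate 2, but with these shared origins the kept sign is no independent check.

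The lists themselves split in the same way, which touches every result on promoters. Of all peaks, 23.6% and 27.8% were within 2 kb of a TSS in control replicates 1 and 2, and 13.6% in control replicate 3. PhenDC3 replicates 1 and 2 had 14.6% and 12.4%. Control replicate 3 was therefore closer in this measure to the PhenDC3 lists than to the other control lists. With the same number of strongest peaks taken from each list, the 5 shares were 25.05%, 27.96%, 13.6%, 15.9% and 12.95%, in the same order. The labels were used as given. Whether control replicate 3 was handled differently or carries the wrong label was not tested, and what a C1/C2 origin stands for depends on that label. What set the lists apart was not tested.

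**Figure D1:**
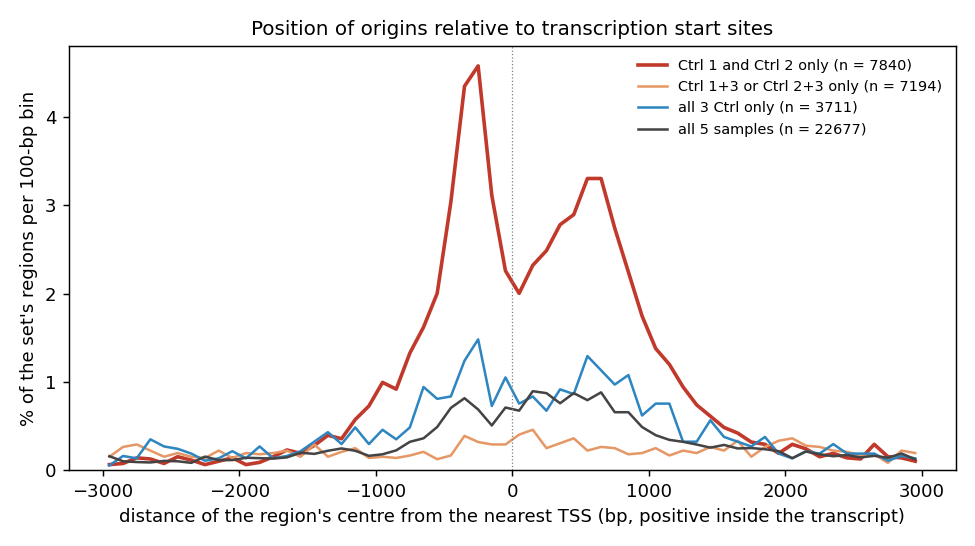
Position of 4 sets of origins relative to the nearest TSS, as the share of each set per 100-bp bin (y axis, %) against the signed distance in bp (x axis, positive inside the transcript). The C1/C2 origins (red) have a maximum of 4.58% in the bin centred 250 bp upstream, a low of 2.00% in the bin that begins at the TSS and a broader maximum of 3.30% at 550 to 650 bp downstream, while the other control pairs stay below 0.5%.

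Around the TSS itself C1/C2 origins were sparser than on either side. Their density was highest 200 to 300 bp upstream, with 359 origins (4.58%) in that bin of 100 bp, fell to 157 origins (2.00%) in the first 100 bp of the transcript, and was 259 origins (3.30%) in each of the bins from 500 to 700 bp downstream. The origins of all 5 samples had 0.688% in the bin with the maximum of the C1/C2 origins, and those of all 3 controls only had 1.48%. Of the C1/C2 origins, 2137 were within 2 kb upstream of their nearest TSS and 2541 within 2 kb downstream. They were near 4163 genes, of which 3128 had 1 such origin, 841 had 2 and 194 had 3 or more (5 at most), and 663 genes had one on both sides of a TSS. Of the 4163 genes, 923 also had an origin of all 5 samples within 2 kb.

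Among the regions with a peak in control replicates 1 and 2, nearness to a TSS went with the absence of all other peaks. Of those regions, C1/C2 origins made up 32.2% (30.8 to 33.6%) at 250 to 500 bp from a TSS, 12.8% at 2000 to 5000 bp and 7.27% (6.94 to 7.61%) beyond 20000 bp. Control replicate 3 had a peak in 36.5% of them at 250 to 500 bp and in 78.6% beyond 20000 bp. PhenDC3 replicate 2 went from 41.4% to 76.6%, and PhenDC3 replicate 1, the longest list, from 55.1% to 67.6%. All 3 samples thus had fewer peaks near TSSs, and the span was widest in the control replicate.

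**Figure D2:**
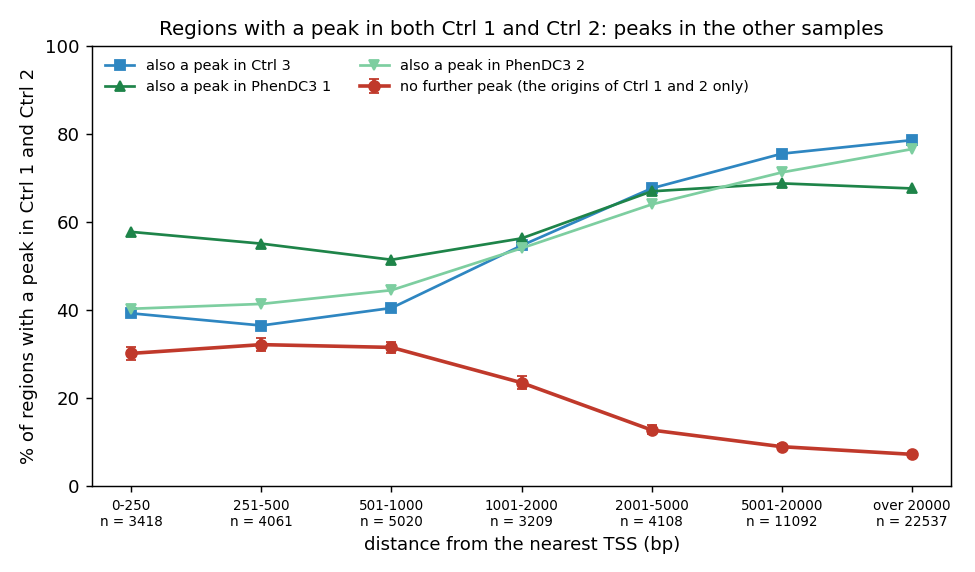
Regions with a peak in both control replicates 1 and 2, grouped by distance from the nearest TSS (x axis, bp, with the number of regions), and the share (y axis, %) that also has a peak in each other sample or in none of them (red, bars are 95% Wilson intervals). The share with no further peak is 30.2 to 32.2% within 1000 bp of a TSS and 7.27% beyond 20000 bp, and the line of control replicate 3 rises from 36.5 to 78.6%.

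Absence of a peak did not always mean an empty neighbourhood. A peak of control replicate 3 or of a PhenDC3 sample lay within 1 kb of 55.9% of the C1/C2 origins, and the median gap to the nearest was 782.5 bp. The median gap was 4929 bp to control replicate 3, 1208 bp to PhenDC3 replicate 1 and 3515 bp to PhenDC3 replicate 2. Among the C1/C2 origins near a TSS, 62.7% had such a neighbour within 1 kb, against 45.9% of those away from TSSs. At the 4163 genes, control replicate 3 had some peak within 2 kb of a TSS in 41.3%, PhenDC3 replicate 1 in 68.6% and PhenDC3 replicate 2 in 49.2%, and any of the 3 had one in 77.4%. When origins with such a neighbour within 1 kb were left out, 3459 C1/C2 origins remained, and the differences in promoter share were 23.2 points from the other pairs, treated likewise, and 17.7 points from the origins of all 5 samples. C1/C2 origins also lay near each other, as 36.0% had another within 7 kb, where 10.8% of the origins of all 5 samples and 9.12% of those of the other pairs had a C1/C2 origin within that distance.

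By annotation, 33.2% of the C1/C2 origins were in promoters, 35.1% in introns, 6.67% in coding exons, 5.70% in other exons and 19.3% were intergenic. The intergenic share was 43.6% for the other pairs and 44.5% for the origins of all 5 samples, differences of -24.3 points (-25.7 to -22.9) and -25.2 points (-26.3 to -24.1). The median width of the C1/C2 origins was 303 bp, between the 232 bp of the other pairs or 217 bp of all merged regions and the 487 bp of the origins of all 5 samples, and regions merged from more peaks can be wider. A median of 6.89% of their bases was repeat-masked, against 12.2%, 12.1% and 13.3% in these sets. On autosomes they made up 12.9% (chromosome 1) to 15.7% (chromosomes 2 and 4) of the regions with peaks in control replicates 1 and 2. Their share was 17.95% (15.6 to 20.6%) on the X chromosome and 5.64% (11 of 195, 3.18 to 9.82%) on the Y chromosome. The intervals of the X chromosome and of chromosome 4 (14.6 to 16.9%) overlapped.

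CpG-rich sequence was more frequent at the C1/C2 origins than at all sets compared with them. A window of 500 bp on the centre was called CpG-island-like where its GC content was at least 55% and its ratio of observed to expected CpGs at least 0.65. This held for 1822 C1/C2 origins (23.2%, 22.3 to 24.2%), against 5.71% of the origins of all 5 samples, 8.11% of those of all 3 controls only, 1.46% of the other pairs and 4.84% of all merged regions. The difference from the origins of all 5 samples was 17.5 points (16.6 to 18.5), and without control replicate 1, 2 or 3 it was 8.33, 4.81 and 11.6 points. CpG-island-like windows were common near TSSs in all sets, so the share was also taken there and elsewhere separately. Near TSSs it was 35.3% for the C1/C2 origins, 25.1% for the origins of all 5 samples (difference 10.1 points, 8.16 to 12.02) and 12.2% for the other pairs (23.01 points, 20.01 to 25.6). Away from TSSs it was 5.47%, 1.67% and 0.323%. The presence of a G4, which differed between the sets, was not held equal here, and shares by CpG-island-like window and G4 together are given below.

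**Figure D3:**
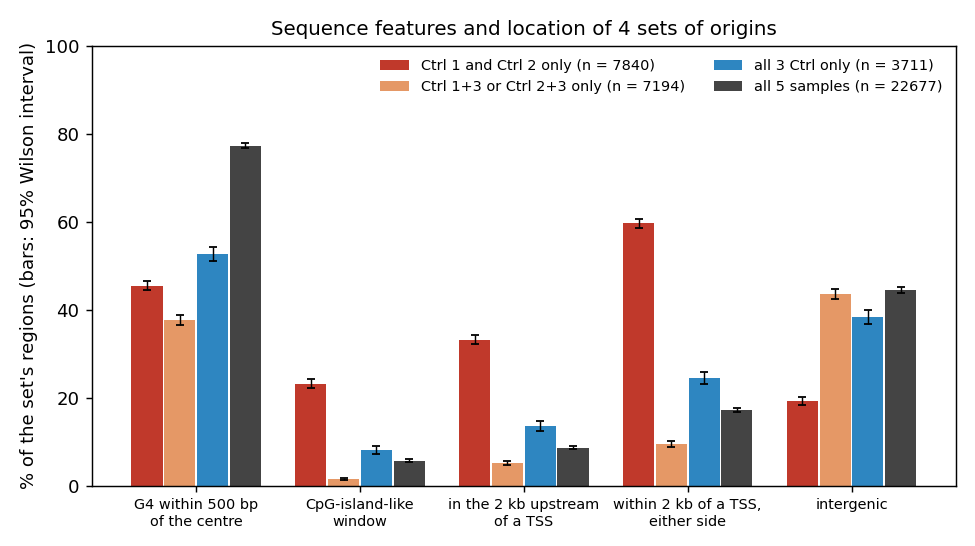
Share of origins (y axis, %, with 95% Wilson intervals) with each of 5 features for 4 sets of origins. The C1/C2 origins (red) have the highest shares in CpG-island-like windows (23.2%), promoters (33.2%) and within 2 kb of a TSS (59.7%), the lowest intergenic share (19.3%), and a G4 share (45.5%) far under that of the origins of all 5 samples (77.3%).

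Short motifs were searched on both strands. In 500 bp on the centre, GGGCGG, the GC box bound by Sp1 and related factors, was found in 37.1% of the C1/C2 origins, in 10.4% of the other pairs, in 19.03% of the origins of all 5 samples and in 17.1% of all merged regions. CCGGAAG, a sequence of ETS factors, was found in 7.18%, 2.79%, 3.31% and 3.36%, and TATAAA in 15.2%, 23.6%, 16.5% and 21.3%. Among windows that were CpG-island-like and near a TSS, GGGCGG was found in 73.5% of the C1/C2 origins, 73.8% of the other pairs (62 of 84), 77.9% of the origins of all 5 samples and 78.3% of all regions. CCGGAAG was found there in 14.7%, 20.2%, 11.6% and 14.3%, and TATAAA in 6.49%, 10.7%, 5.91% and 5.75%. Within such windows these motifs were near the level of all regions at the C1/C2 origins. A match of these letters is a description of the sequence and not evidence of a bound factor.

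Predicted G4s were less frequent at the C1/C2 origins than at the origins of all 5 samples. A G4 (G4Hunter score of at least 2 in windows of 25 bases) was within 500 bp of the centre of 3567 C1/C2 origins (45.5%, 44.4 to 46.6%), against 77.3% of the origins of all 5 samples, a difference of -31.8 points (-33.0 to -30.6). Origins of all 3 controls only had 52.8%, and the 2 other pairs differed from each other, with 48.9% for control replicates 1 and 3 and 25.1% for replicates 2 and 3. The C1/C2 origins were thus 3.43 points (1.49 to 5.37) under the first pair and 20.4 points (18.6 to 22.2) over the second. Against both pairs pooled the difference was 7.90 points (6.32 to 9.46), but it was -5.39 points within bins of equal GC content and -2.44 points in the stronger part of each list. It was also 2.84, -0.372, 12.3 and 3.88 points without control replicate 1, 2 or 3 or PhenDC3 replicate 2, where both sets took in further regions. Its direction thus depended on these choices. The difference from the origins of all 5 samples kept its sign, with -29.9 points within bins of GC content, -12.3 points with a G4Hunter threshold of 1.5, and -12.3 points with G4s within 250 bp. It was as large near TSSs (47.0 against 81.4%) as away from them (43.2 against 76.5%).

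The position of the G4s differed as well. Around the origins of all 5 samples, with the G-rich strand read 5′ to 3′, G4 coverage had a single maximum of 14.6% of origins at 288 bp upstream of the centre. The origins of all 3 controls only had 7.92% at 313 bp upstream, and the other pairs 4.53% at 455 bp upstream. The C1/C2 origins had no such maximum. Their highest coverage was 3.22%, at 223 bp downstream, and the means over 100 to 400 bp were 2.43% upstream and 2.78% downstream, where the origins of all 5 samples had 10.1% and 1.136%. Of the 3567 G4-positive C1/C2 origins, 2413 had 1 G4 and 318 (8.92%) had 3 or more, close to the 9.64% of the G4-positive origins of all 5 samples, and the median of the best score was 2.12 against 2.18.

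**Figure D4:**
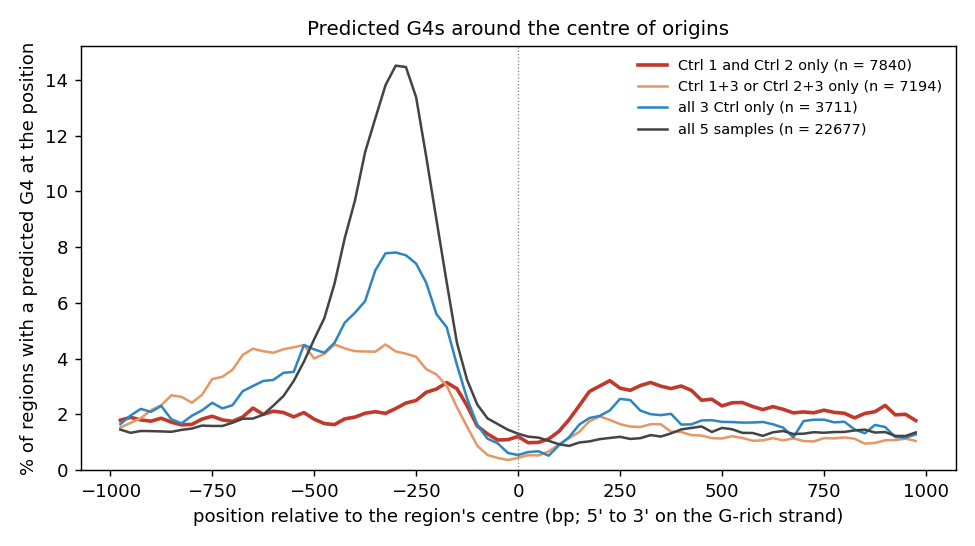
Share of origins with a predicted G4 (y axis, %, running mean over 25 bp) at each position from the centre of the region (x axis, bp, 5′ to 3′ on the G-rich strand) for 4 sets. The origins of all 5 samples reach 14.6% at 288 bp upstream, and the C1/C2 origins (red) stay at or below 3.22% on both sides with a low at the centre.

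The 2 features divided the C1/C2 origins into 4 groups. The largest, 3364 origins (42.9%), had neither a CpG-island-like window nor a G4, and 49.9% of these were within 2 kb of a TSS. G4 alone was found at 2654 origins (33.8%), of which 50.9% were near a TSS. The 909 with a CpG-island-like window alone and the 913 with both were near a TSS in 87.9% and 93.1%. Read from the regions with peaks in control replicates 1 and 2, the share that were C1/C2 origins was 44.7% (43.4 to 46.0%) near TSSs without a G4 and 21.7% (20.9 to 22.5%) near TSSs with a G4. Away from TSSs it was 16.5% without and 5.09% with a G4. Nearness to a TSS and the lack of a G4 therefore each went with membership, within the levels of the other. For the CpG-island-like window this depended on the site. Near TSSs without a G4 the share was 43.57% (41.31 to 45.85%) with such a window and 45.21% (43.61 to 46.81%) without. Near TSSs with a G4 it was 24.31% and 20.26%. Away from TSSs it was 23.55% and 16.14% without a G4, and 18.98% and 4.921% with one.

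The peaks of the C1/C2 origins were of middle rank in their lists. The 8222 peaks of control replicate 1 had a median fold enrichment over the RNase-treated library of 4.86 (quartiles 3.78 to 6.29) and a median percentile by −log10 p of 48.3 in their list, and the 8065 peaks of control replicate 2 had 4.59 (3.71 to 5.73) and 46.7. Near TSSs the median percentiles were 50.02 and 56.4, and away from TSSs 45.6 and 33.7. The origins with a CpG-island-like window alone ranked highest, with medians of 62.2 and 63.5, and those with neither feature had 46.7 and 41.3. Only 94 origins were in the top 10% of both lists, while 2560 were under the median of both. The percentiles in the 2 lists, compared across origins of the same genome and the same RNase-treated library, had a Pearson's r of 0.350 and a Spearman's rho of 0.348 over 7840 origins, which are not independent replicates. The peaks of the 2 replicates coincided closely. Their summits were a median of 29 bp apart, 80.7% were within 100 bp, and 7278 origins consisted of exactly 1 peak of each list.

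At the threshold of the rule, the weakest peaks of C1/C2 origins had a −log10 p of 5.03 in control replicate 1 and 5.05 in control replicate 2, the lower end of these lists. The weaker peak was under 6 in 182 origins. Just outside were 9342 regions with peaks in both replicates and in exactly 1 further sample, and in 184 of these the further peak was under 6, with a lowest value of 5.01.

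The 10 C1/C2 origins with the highest mean percentile ranked above 97 in both lists, with 1 exception in control replicate 1, where the origin at Pank1 was at 96.8. The strongest, at Htra4, a serine protease gene, covered chromosome 8, 25038685 to 25039119, 60 bp downstream of the TSS in an exon, with fold enrichments of 13.03 and 9.46 and −log10 p of 110 and 71.4. It was CpG-island-like with no G4, and the nearest peak of the other samples was 1206 bp away. That at Cep83 and Cep83os (chromosome 10, 94687932 to 94688586) had 14.9 and 11.8, with the nearest other peak 17094 bp away. Of the 10, 8 were near a TSS, namely those at Htra4, Uba6, Pank1, Rhbdf1, Chst2, Cfap410, Coq10a and Cep83. The others were in introns, at -26587 bp from the nearest TSS, that of Tcaim (12.98 and 11.6-fold, upstream), and at 188098 bp from that of Taf4 (6.91 and 6.27-fold, downstream). They are named by the nearest TSS, and which gene the intron belongs to was not determined. Of the 10, a G4 was present at 3 (Uba6, Taf4 and Coq10a) and a CpG-island-like window at Htra4 and Chst2. No C1/C2 origin was found at Hip1.

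Some genes held many C1/C2 origins in their transcribed region. The genes named were picked for their high counts. Shares above the 14.7% of all regions with peaks in control replicates 1 and 2 are therefore no result about them. Arhgef17, which encodes a guanine nucleotide exchange factor, had 7 over 62.4 kb among 12 regions with peaks in control replicates 1 and 2. Bcor, an X-linked gene for a corepressor, had 7 of 15 over 124 kb, and Sipa1l3 had 6 of 12 over 185 kb. Ubtf, a transcription factor of the ribosomal RNA genes, had 5 of 11 within 16.3 kb, and the noncoding gene Mir9-3hg had 5 of 8 within 34.4 kb, and further genes had 5 in longer transcripts. Of these, Arhgef17 RNA was higher with PhenDC3 by 0.68 (SE 0.199, adjusted p = 0.0261). The RNA of Bcor changed by -0.79 (SE 0.325, adjusted p = 0.0872) and that of Ubtf by 0.09 (SE 0.114, adjusted p = 0.554), both without passing the test. Sipa1l3 (0.38, SE 0.217, adjusted p = 0.2) and Mir9-3hg (-0.18, SE 0.416, adjusted p = 0.76) did not pass it either. Values of this kind are log2 fold changes of PhenDC3 minus control from the edgeR quasi-likelihood test over 13972 genes, with Benjamini-Hochberg adjustment and a threshold of 0.05.

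Expressed genes had C1/C2 origins more often than genes with too few reads to test, but the level among expressed genes made little difference. Of 13949 tested genes with an annotated TSS, 3354 (24.0%, 23.3 to 24.8%) had a C1/C2 origin within 2 kb, and of 9989 genes that were not tested, 617 (6.18%, 5.72 to 6.67%). In 5 equal groups of the tested genes by control RPKM, the share was 21.4% in the lowest, with a median of 0.311 RPKM, then 25.3%, 25.03% and 25.2%, and 23.2% (21.7 to 24.8%) in the highest, with a median of 57.2 RPKM. Origins of all 5 samples were near 19.1 to 21.7% of the tested genes and 8.12% of those not tested. The median control level was 6.37 RPKM for genes with a C1/C2 origin and 6.25 RPKM for all tested genes.

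The RNA of genes with a C1/C2 origin near the TSS changed with PhenDC3 about as often as that of all genes. Of the 3354 genes, 694 (20.7%) were higher and 583 (17.4%) lower, where of all 13972 genes tested 18% were called higher, 18.7% lower and 36.8% in either direction. The shares of the 2798 genes with an origin of all 5 samples near the TSS were 19.7% and 19.3%. The median log2 fold change was 0.05 for genes with a C1/C2 origin and 0.01 for all tested genes. These shares lie near the background and are no result about these genes. The number called lower was 350 without RNA-seq PhenDC3 replicate 1, when 11.4% of all genes were called lower. The labels do not say whether the RNA-seq samples came from separate cultures, so p-values measure the spread between these samples. In bulk RNA, fewer cells that express a gene and less RNA per cell cannot be told apart.

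**Figure D5:**
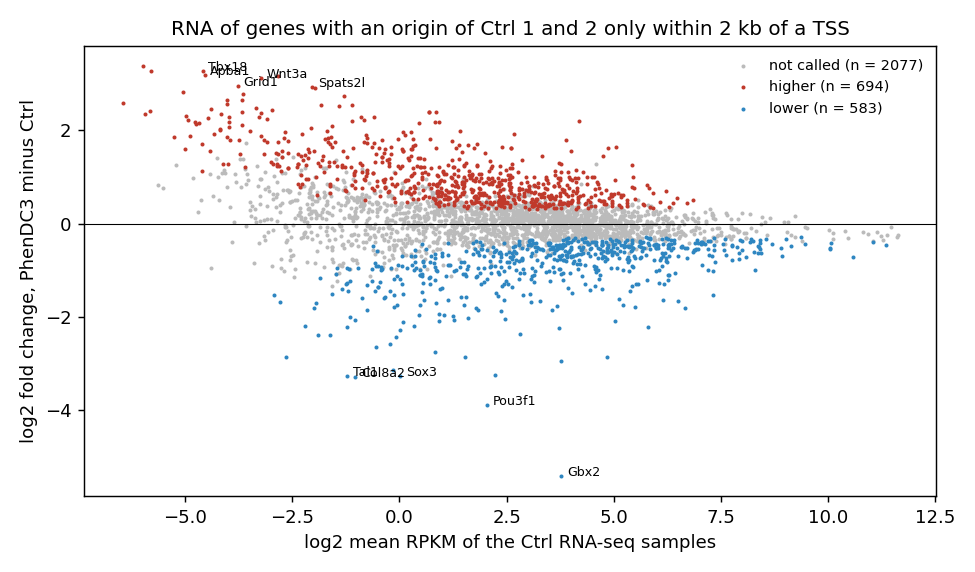
RNA-seq of the 3354 tested genes with a C1/C2 origin within 2 kb of a TSS, as the log2 fold change of PhenDC3 minus control (y axis) against the log2 mean RPKM of the 3 control samples (x axis). Points called higher (694, red) and lower (583, blue) by edgeR lie on both sides of 0, with 2077 not called (grey), and labels mark 5 genes with strong increases and 5 with strong decreases.

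The genes with the largest falls included regulators of early development. Gbx2, a homeobox gene of the early embryo and of ES cells, had 3 C1/C2 origins near its TSS. It was at 26.1, 34.1 and 27.4 CPM in the control samples and at 0.867, 0.335 and 0.799 CPM with PhenDC3, with no overlap, a change of -5.42 (SE 0.276, adjusted p = 2.63e-05). Pou3f1, a POU factor of the primed state and the neural lineage, had 2 such origins and was at 7.46, 14.4 and 15.5 CPM against 0.694, 0.586 and 1.20 CPM (-3.90, SE 0.365, adjusted p = 0.000144). Both genes fell in all PhenDC3 samples. Sox3 (-3.27), Tal1 (-3.27) and Col8a2 (-3.29) followed, with control means of 1.84 to 2.13 CPM.

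The largest rises were in genes of low level. Spats2l was at 0.977, 1.00 and 0.994 CPM in the control samples and at 7.56, 9.45 and 5.77 CPM with PhenDC3 (2.93, SE 0.247, adjusted p = 9.69e-05). Wnt3a, a ligand of canonical Wnt signalling, was at 0.434, 0.365 and 0.0865 CPM against 2.67, 3.01 and 2.25 CPM (3.12, SE 0.421, adjusted p = 0.000772). The groups did not overlap in either gene. Apba1, whose coding exon holds one of the CpG-rich sequences printed above and which has another C1/C2 origin near its TSS, rose by 3.19 (SE 0.575, adjusted p = 0.00303), from 0.398, 0.456 and 0 CPM to 2.57, 2.38 and 3.01 CPM. The transcription factor Tbx18 (3.27) and the glutamate receptor gene Grid1 (2.95) also rose.

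The most abundant RNAs from TSSs with a C1/C2 origin were mainly those of ribosomal proteins, among them Rpl32, Rplp0 and Rpl7a, and of the cytosolic chaperone Hsp90ab1, which were at 3102, 2651, 2611 and 2836 RPKM in control. Of these 4, Rpl7a fell, from 2379, 2321 and 2067 CPM to 1680, 1814 and 1415 CPM (-0.46, SE 0.125, adjusted p = 0.0185), and the groups did not overlap. Rpl32 had -0.30 (SE 0.127, adjusted p = 0.0962) and Hsp90ab1 -0.08 (SE 0.141, adjusted p = 0.699).

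Gene groups related to replication and to ES cells were counted next, and each count is to be read against all tested genes, of which 18% were higher, 18.7% lower and 24.0% near a C1/C2 origin. Of 40 origin licensing and firing factors tested, 6 had a C1/C2 origin near the TSS (15%), and 3 of these 6 and 15 of the 40 were lower with PhenDC3, while 1 of the 40 was higher. Orc2, a subunit of the origin recognition complex, was at 158, 158 and 149 CPM in control and 115, 101.3 and 109 CPM with PhenDC3 (-0.52, SE 0.103, adjusted p = 0.00492). Cdt1 (-0.75) and Gins4 (-0.40), which act in licensing and in the replicative helicase, were also lower, and Rif1, a regulator of replication timing, had 0.38 (SE 0.222, adjusted p = 0.205). The median log2 fold change of the 40 genes was -0.24, and it was -0.32 for the 6. Of 12 G-quadruplex helicases in the table, none had a C1/C2 origin near the TSS, and 2 had an origin of all 5 samples. None of the 12 passed the edgeR test after adjustment, 5 had an unadjusted p under 0.05, and DESeq2 called 3.

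Of 42 DNA repair genes, 9 (21.4%) had a C1/C2 origin near the TSS, close to the 24.0% of all tested genes, of which 2 were lower, Nbn (-0.42) among them. Of all 42, 6 were lower, where 18.7% of all tested genes were. Xpa itself was at 3.62, 4.38 and 2.81 CPM in control and at 3.12, 3.47 and 3.01 CPM with PhenDC3, ranges that overlap (-0.17, SE 0.221, adjusted p = 0.576). Parp1 had -0.34 (SE 0.173, adjusted p = 0.156). Of 36 cell cycle genes, 11 (30.6%) had a C1/C2 origin, and E2f4 (-0.46), E2f3 (-0.55) and Cdk6 (-2.28) were lower, among 3 higher and 8 lower of all 36, against 18% and 18.7% of all tested genes. Of 36 RNA polymerase II and Mediator genes, 3 had one (Polr2b, Med14 and Med26), and none of these 3 passed the edgeR test, had an unadjusted p under 0.05 or was called by DESeq2, while 1 of the 36 was higher and 6 were lower.

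Of 24 pluripotency genes, 7 (29.2%, against 24.0% of all tested genes) had a C1/C2 origin near the TSS. Tfcp2l1, a factor of the naive state, rose from 245, 212 and 360 CPM to 807, 687 and 1020 CPM (1.62, SE 0.218, adjusted p = 0.000754), and Fgf4 (0.71) and Klf4 (0.82) also rose, while 1 of the 7 fell. Sox2 had 0.22 (SE 0.102, adjusted p = 0.122). Over all 24 genes, 8 were higher and 8 lower, against 18% and 18.7% of all tested genes. Of 48 chromatin regulators, 18 (37.5%, against the same 24.0%) had a C1/C2 origin. An origin of all 5 samples was near the TSS of 25 of the 48, where 19.1 to 21.7% of tested genes had one, so the excess was not particular to C1/C2 origins. Of the 18 genes, 5 rose, among them the Polycomb genes Suz12 (0.56) and Bmi1 (2.16), Kmt2d (0.66) and Tet2 (0.66). The DNA methyltransferase Dnmt3b (-1.80) and the Polycomb gene Eed (-0.37) fell. Of all 48, 8 were higher and 10 lower, to be read against the same 18% and 18.7%. Dnmt3b was at 359, 364 and 588 CPM in control and 131, 99.4 and 145 CPM with PhenDC3.

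Of 20 aminoacyl-tRNA synthetases, which charge tRNAs with amino acids, 5 (25%, against 24.0% of all tested genes) had a C1/C2 origin near the TSS. Kars (-0.78), Vars (-1.06), Gars (-0.57) and Farsb (-0.74) were lower, and Eprs had -0.22 (SE 0.138, adjusted p = 0.249). Vars had 3 such origins and was at 306, 366 and 427 CPM in control and 188, 167 and 169 CPM with PhenDC3. Of all 20, 12 were lower, where 18.7% of all tested genes were, and 8 of the 12 had no C1/C2 origin near the TSS. Of 74 cytosolic ribosomal protein genes, 17 (22.97%) had a C1/C2 origin, of which Rpl7a, Rpl11 (-0.42) and Rps10 (-0.39) were lower, against 20 lower of all 73 tested, and 3 of 17 is near the share of 18.7% over all tested genes.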

How the data were processed

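SNS-seq peaks and RNA-seq counts of CGR8 ES cells were used as deposited. For SNS-seq, the authors mapped reads to mm10 with Bowtie2 2.2.5, ran MACS2 2.1.0 on each replicate against an RNase-treated library (narrow peaks) and kept the peaks that overlapped SICER regions. The deposited lists give the fold enrichment (a ratio), the −log10 p and q values and the summit. For RNA-seq, the authors deposited raw read counts per gene (TopHat2 2.1.1, HTSeq 0.6.1p1). The deposited tables of pseudo-counts and of fold changes and p-values from the authors' own comparison were not used.

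Regions were annotated with curated RefSeq transcripts of GRCm38.p6 (45756 transcripts of 26180 genes). G4s were predicted on both strands with G4Hunter (window 25, threshold 2) and, as an alternative, Quadparser. Shares have 95% Wilson intervals and differences 95% Newcombe intervals, which cover counting error only. Genes were tested with edgeR 4.0.16 in R 4.3.3 (quasi-likelihood, relative log expression, filterByExpr, Benjamini-Hochberg at 0.05), with DESeq2 1.42.0 as an alternative. RPKM used the summed length of a gene's annotated exons. The merging of peaks, the G4 predictions, the annotation of positions and the edgeR test were checked on simulated data, and the other steps were not.

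The origins and gene lists were chosen with earlier results of these data known. Regions named were the 10 with the highest mean percentile, the 3 with the highest G4Hunter score and those at Xpa and Hip1. Genes named were, among those with such an origin within 2 kb of a TSS, the 5 with the highest control RPKM, the 5 largest rises and 5 largest falls among called genes of at least 1 CPM without overlap, up to 3 per list by control level, and the 5 with most origins in the transcript. Members of a list that were called and are named beyond these 3 were chosen after their values were seen, as were the motifs. Sequences were read from GRCm38.p6, leaving out UTRs. Alternatives were the overlap that joins peaks, the strength and length of the lists, each replicate left out (in the regions merged from all lists), origins with near neighbours left out, G4 settings, promoter width and the RNA-seq settings. Some genes and sequences that these rules name are not reported here.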

Additional observations from a re-analysis of the deposited data

How the results depend on the processing

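The lists give no depth, so a missing peak is not the absence of an origin, and 2 and 3 SNS-seq samples with 1 RNase-treated library per condition do not separate replicate from treatment. Of 89 alternatives, 33 were labelled the same, 49 moved, 3 weaker, 1 stronger and 3 reversed. For a difference in shares, the same meant a value within the interval of the main value. For counts the label was looser. It took in 11551 origins without control replicate 3 against 7840, and 399 genes called lower without RNA-seq PhenDC3 replicate 3 against 583. All values with peaks joined at 50% overlap (7770 origins) were labelled the same. With the stronger part of each list there were 4662 C1/C2 origins. Their differences in points from the origins of all 5 samples were then -21.6 for G4s and 21.5 for CpG-island-like windows, and the G4 difference from the other pairs reversed to -2.44. With equal numbers of strongest peaks, the differences from the origins of all 5 samples were -27.6 (G4), 19.7 (CpG-island-like) and 22.4 (promoter), and those from the other pairs 5.68 (G4) and 26.2 (promoter). Without origins that had a neighbour within 1 kb, 3459 were left, with -39.7, 14.5 and 17.7 against the origins of all 5 samples and 4.16 and 23.2 against the other pairs. The G4 differences from the origins of all 5 samples and from the other pairs were -12.3 and 15.5 at a G4Hunter threshold of 1.5, -25.3 and 12.5 with Quadparser, and -29.9 and -5.39 (reversed) within bins of GC content. The first was also -12.3 with G4s within 250 bp. Looser CpG criteria gave 22.2, and promoters of 2 kb on both sides gave 42.5 and 50.1. The cause was not tested, except that the last definition covers more sequence.

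Leaving out each SNS-seq list gave 9055 to 43163 origins. Against the origins of all other samples the differences were -40.8 to -24.9 (G4), 4.81 to 21 (CpG-island-like) and 7.05 to 22.3 (promoter). Against the other pairs they were -0.372 to 12.3 (G4, reversed without control replicate 2) and 9.46 to 26.5 (promoter). The list was dropped from the rule, so each set kept its regions and took in others. Without a control list, the other pairs then also held regions of a single list. Leaving out each RNA-seq sample gave 480 to 770 genes called higher and 350 to 580 called lower. With TSSs within 500 bp, 409 were higher (20.4% of 2000 genes) and 355 lower (17.8%).

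With the RNA-seq replicate number as a replicate block, 1052 genes with a C1/C2 origin were higher and 855 lower, including all those called without it, and 27.2% and 26.4% of all genes tested were called. Deviations from the group means correlated by 0.0904, 0.544 and 0.405 between samples of the same number. Between different numbers the values ran from -0.456 to 0.0737, and each control correlated best with its own number, a hint from the data. The headers of the count columns also begin with consecutive numbers for the control and PhenDC3 samples of the same replicate number. What that order marks is not stated. The labels do not say what a replicate number marks and the first value is low, so the samples were not treated as paired, and whether they are was not settled.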
